A study of Mus musculus with 2 samples.

Results

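The 8 genes described here, Rbp3, Rdh12, Rdh8, Rdh10, Dhrs3, Abca4, Rlbp1 and Rbp4, encode retinoid-handling proteins and were matched by gene symbol in a table of 32227 genes. They were counted in single nuclei from whole retinas of C57 BL/6J mice at postnatal day 21, by 3' RNA-sequencing, with 1 library per genotype. The Tet tcKO library came from mice with loxp sites on both alleles of Tet1, Tet2 and Tet3 (loxp/loxp) that carried the Chx10-EGFP/cre transgene, which drives Cre recombinase in retinal progenitor cells. This transgene is mosaic, so Cre-positive mice were crossed with each other to obtain animals with 2 copies. The Cre- library, labelled wild type, came from mice of the same age bred from Cre-negative parents. Each library pools 2 dissociations, and no label ties a nucleus to an animal, so each genotype is a single sample, no test between genotypes was possible, and no p-value is given. All 95% intervals below are exact and cover counting error only, not the spread between animals.

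Vision begins when light converts the cis-retinal bound to an opsin into all-trans-retinal. In photoreceptors, ABCA4 moves retinal across the disc membrane of the outer segment, and the dehydrogenases RDH8 and RDH12 reduce it to retinol. IRBP, the product of Rbp3, carries retinoids through the space between photoreceptors and the retinal pigment epithelium, where the chromophore is rebuilt. Muller glia, the radial glia of the retina, also take part in recycling, and with the pigment epithelium they hold CRALBP, the product of Rlbp1, which binds the cis form. RDH10 oxidizes retinol to retinal and is required for retinoic acid synthesis in development, whereas DHRS3 catalyses the reverse step. RBP4 is the retinol carrier of blood plasma.

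There were 7357 nuclei with 11510585 unique molecular identifiers (UMIs) for Cre- and 6766 nuclei with 16590747 UMIs for Tet tcKO. The median depth was 1107 UMIs per nucleus for Cre- and 1836.5 for Tet tcKO, and mitochondrial genes gave 5.47% and 1.76% of all UMIs. Both libraries shared 1 barcode. UMIs of Tet1, Tet2 and Tet3 differed by log2 ratios of 0.29, 0.41 and -0.05, and 3' tags need not cover the floxed exons, so these values do not check the deletion. The authors' annotation assigned 5214 Cre- nuclei and 6 Tet tcKO nuclei to rods and 265 and 3225 to cones. In a check against marker genes, a cluster passed where no other class had more markers among its 10 leading genes than its own class. A cluster with 0 markers of any class also passed, so a pass does not establish identity. Amacrine cluster 27, with 256 of 403 Cre- amacrine nuclei, passed with 0 of its own, as did cone cluster 46, bipolar cluster 43 and Muller glia cluster 37. All amacrine, horizontal and retinal ganglion cell (RGC) clusters passed, whereas 9 of 15 rod, 8 of 9 cone, 5 of 9 bipolar and 1 of 3 Muller glia clusters did. Rods and cones were therefore pooled, as 5479 Cre- and 3231 Tet tcKO photoreceptors, and bipolar and Muller glia carry the annotated name only. The same holds for the Cre- cones, 264 of which are cluster 11, the cone cluster that did not pass. Their rod markers summed to 13710 CPM, above the 10737 of Cre- rods, and their cone markers to 1894.5 CPM, compared with 1728.5 in Cre- rods and 6866 in Tet tcKO cones. Comparisons of cone-annotated nuclei below are therefore between unlike cells that share an annotation, not within 1 cell type. The Tet tcKO bipolar-annotated nuclei held 6182 CPM of cone markers, compared with 1819 in Cre-, and of their 6 clusters the 4 that did not pass (22, 35, 39 and 41) had a cone gene among the leading ones. In the pooled photoreceptors, 0 of 9 rod markers and 8 of 9 cone markers were higher in Tet tcKO, with median log2 ratios of -1.12 and 1.54, so a rod-to-cone difference and a difference between genotypes cannot be told apart there.

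Levels are given in CPM, the UMIs of a gene scaled to the same total for each population, and a log2 ratio is Tet tcKO over Cre- on that scale. Over all nuclei, each of the 8 genes reached 10 CPM in at least 1 library. Rbp4 and Rdh10 were at least 2-fold higher in Tet tcKO, Rdh12, Rdh8 and Rlbp1 were at least 2-fold lower, and Abca4, Rbp3 and Dhrs3 were lower by less than that. Of the 11158 genes tested, 3.18% were at least 2-fold higher and 2.48% at least 2-fold lower, 5.66% in all. The median log2 ratio was -0.52 over the 8 retinoid genes and 0.15 over all genes. Scaling by TMM or median-of-ratios factors shifted the median of all genes by -0.11 and lowered the share of calls that were higher in Tet tcKO from 56.2% to 42.9% and 42.7%. No retinoid gene changed direction over all nuclei under these scalings, but Rdh10 fell just short of the 2-fold limit, at 0.96 under both.

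In the pooled photoreceptors the differences were mostly of the same direction. Rbp4 and Rdh10 were again at least 2-fold higher and Rdh8 and Rlbp1 at least 2-fold lower, while Rdh12 came just short of the limit. The background was larger there, since 6.67% of 11377 genes were at least 2-fold higher and 2.58% at least 2-fold lower, 9.25% in all. The median log2 ratio was -0.39 over the retinoid genes and 0.23 over all genes. TMM and median-of-ratios factors moved the median of all genes by -0.20 and -0.18 and lowered the share of calls in the higher direction from 72.2% to 48.1% and 51.0%, and leaving mitochondrial genes out of the totals gave 65.2%.

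**Figure D1:**
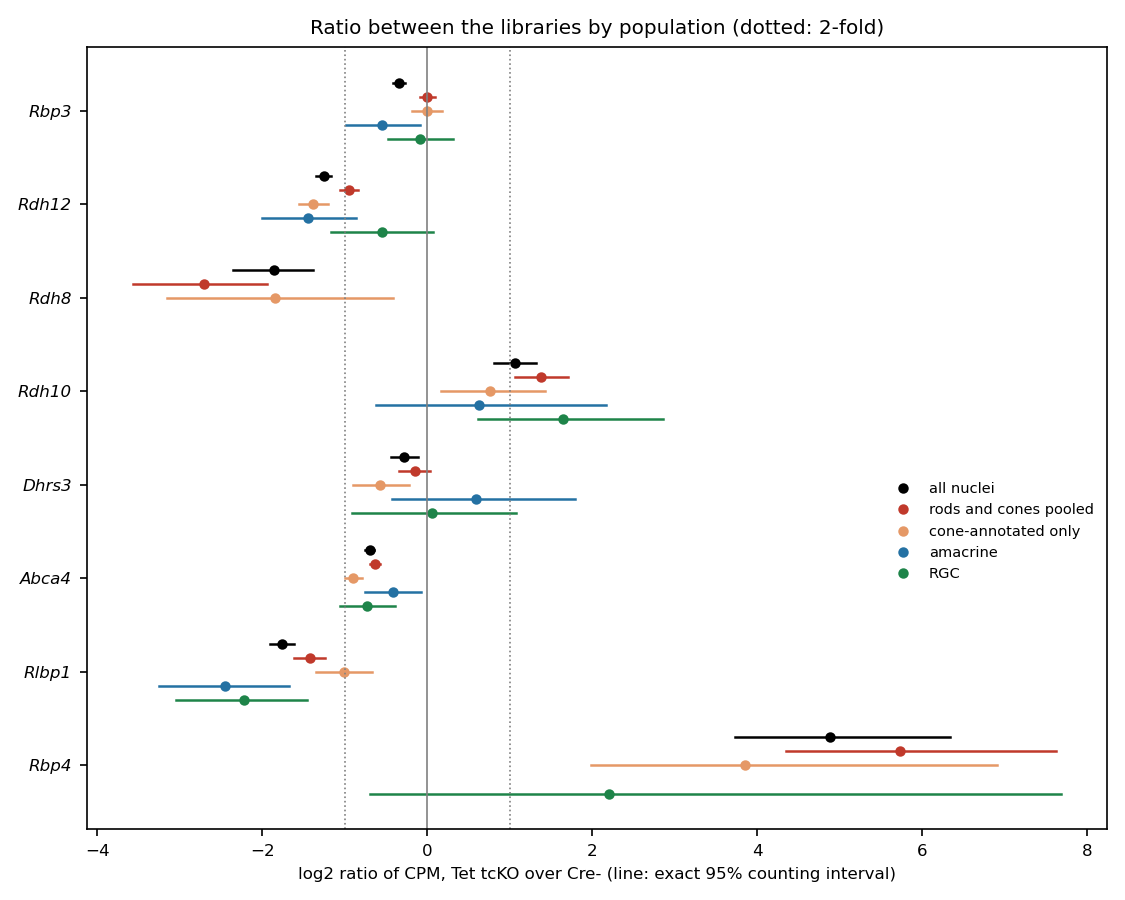
Log2 ratio of Tet tcKO over Cre- CPM for each retinoid gene in the populations compared, with exact 95% intervals for counting error and lines at the 2-fold limit. Rbp4 lay farthest to the right in photoreceptors, at 5.73, and Rdh8 farthest to the left, at -2.71, while Rbp3 lay at 0.00 with total counts, as plotted, and at -0.19 with TMM factors.

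The 250 bases upstream of 1 transcript start per gene, that of the Ensembl canonical transcript, were read from the mouse genome (GRCm39, GENCODE start sites). This was done to show how unlike the windows of these genes are in CpG content, since TET enzymes act on methylated cytosine at CpG. The Rbp4 and Rlbp1 windows lie inside the gene spans given below, so they are not upstream of the annotated 5' ends of these genes. No methylation was measured here. The windows of the 2 genes at least 2-fold higher in Tet tcKO over all nuclei and of the 3 genes at least 2-fold lower are printed 5' to 3' on the strand of the gene, with each CG in capitals. They lie at chr19:38113277-38113526 on the minus strand for Rbp4, chr1:16175305-16175554 on the plus strand for Rdh10, chr12:79255397-79255646 on the plus strand for Rdh12, chr9:20729549-20729798 on the plus strand for Rdh8 and chr7:79037126-79037375 on the minus strand for Rlbp1.
Rbp4: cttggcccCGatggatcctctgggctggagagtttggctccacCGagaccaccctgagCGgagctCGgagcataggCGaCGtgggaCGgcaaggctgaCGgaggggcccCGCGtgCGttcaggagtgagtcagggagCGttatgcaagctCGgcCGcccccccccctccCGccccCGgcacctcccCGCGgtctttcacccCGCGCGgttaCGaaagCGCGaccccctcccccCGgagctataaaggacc
Rdh10: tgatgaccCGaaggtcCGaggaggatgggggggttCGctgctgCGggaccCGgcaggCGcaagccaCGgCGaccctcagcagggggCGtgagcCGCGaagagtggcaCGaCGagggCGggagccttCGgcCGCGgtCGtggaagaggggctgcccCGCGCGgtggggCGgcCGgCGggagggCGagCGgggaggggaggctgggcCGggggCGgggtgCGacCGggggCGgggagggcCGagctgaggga
Rdh12: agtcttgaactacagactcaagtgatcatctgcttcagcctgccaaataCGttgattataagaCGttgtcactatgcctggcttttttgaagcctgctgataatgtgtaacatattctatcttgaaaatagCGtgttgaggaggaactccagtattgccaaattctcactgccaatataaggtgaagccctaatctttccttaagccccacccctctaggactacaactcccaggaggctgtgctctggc
Rdh8: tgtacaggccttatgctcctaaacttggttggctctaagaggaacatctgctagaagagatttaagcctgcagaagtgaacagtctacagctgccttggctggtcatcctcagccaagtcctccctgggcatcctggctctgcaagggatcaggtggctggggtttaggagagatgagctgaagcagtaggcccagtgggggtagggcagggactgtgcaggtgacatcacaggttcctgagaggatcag
Rlbp1: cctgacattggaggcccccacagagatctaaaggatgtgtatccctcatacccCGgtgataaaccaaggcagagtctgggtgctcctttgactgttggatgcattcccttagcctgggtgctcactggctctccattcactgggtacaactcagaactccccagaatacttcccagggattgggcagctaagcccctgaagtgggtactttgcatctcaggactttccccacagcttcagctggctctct

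The Rbp4 and Rdh10 windows held 25 and 32 CG, more than most of 21770 promoters of protein-coding genes, of which 92.9% and 97.7% had as few or fewer. The Rdh12, Rdh8 and Rlbp1 windows held 3, 0 and 1, and 30.6%, 7.39% and 16.5% of promoters had as few or fewer. The genes under the 2-fold limit were mixed, with 2 CG for Rbp3, 11 for Abca4 and 13 for Dhrs3. Among all genes tested over all nuclei, the median window held 9 CG in 306 genes at least 2-fold higher, 6 in 207 at least 2-fold lower and 13 in the 9989 others. The split between the higher and lower retinoid genes is a description of 5 windows, and over all genes the higher group did not exceed those under the limit. The letters TAATCC, core of the site bound by the photoreceptor factor CRX, were found on either strand in the Rbp3 and Abca4 windows and in 7.0% of all promoters. The letters TGCTGA, a partial site of the rod factor NRL, were found on either strand in the Rbp3, Rdh12 and Rdh10 windows and in 14.8% of all promoters.

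Rbp3 (chr14:33675960-33686173, plus strand, 4 exons) encodes IRBP, the retinoid carrier of the subretinal space. Over all nuclei it had 2574 UMIs in Cre- against 2926 in Tet tcKO, or 224 and 176 CPM, which is a log2 ratio of -0.34 (95% interval -0.42 to -0.27). In the pooled photoreceptors its level was 268 CPM in Cre- and 269 in Tet tcKO, for a log2 ratio of 0.00 (-0.09 to 0.09) whose sign held in 5 of 10 other settings. With total counts the photoreceptor levels of Rbp3 were thus within counting error, but the log2 ratio was -0.19 (-0.28 to -0.10) with TMM factors, -0.17 (-0.26 to -0.08) with median-of-ratios factors and -0.16 (-0.26 to -0.06) when at most 1 UMI of a gene was taken from a nucleus. In the bipolar-annotated nuclei Rbp3 was at 194 CPM in Cre- and 137 in Tet tcKO. Cre- rod clusters ranged from 211 to 316 CPM and Tet tcKO cone clusters from 207 to 310, so the ranges overlapped almost throughout.

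Abca4 (chr3:121838092-121973772, plus strand, 50 exons) encodes the disc-membrane retinal transporter. It had 6898 UMIs in Cre- against 6125 in Tet tcKO, or 599 and 369 CPM over all nuclei, giving a log2 ratio of -0.70 (-0.75 to -0.65). In photoreceptors the levels were 762 and 492 CPM and the log2 ratio was -0.63 (-0.69 to -0.57). Abca4 was lower in Tet tcKO photoreceptors beyond counting error but under 2-fold. Cre- rod clusters ranged from 478 to 880 CPM and Tet tcKO cone clusters from 418 to 514, and these ranges overlapped at the 2 lowest rod clusters, 40 and 32. The nuclei annotated as bipolar had 434 CPM in Cre- and 441 in Tet tcKO, a level that in Tet tcKO was 89.5% of that in photoreceptors. Within them, cluster 22 of the Tet tcKO library reached 858 CPM, higher than any Tet tcKO cone cluster, and this cluster did not pass the bipolar marker check.

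Rdh12 (chr12:79255647-79269440, plus strand, 7 exons) encodes a retinal reductase of the photoreceptor inner segment. It had 2413 UMIs in Cre- against 1455 in Tet tcKO, or 210 and 87.7 CPM, which is a log2 ratio of -1.26 (-1.35 to -1.16). In photoreceptors it was 269 CPM in Cre- and 139 in Tet tcKO, for a log2 ratio of -0.95 (-1.06 to -0.85). Rdh12 was lower at every photoreceptor depth, by log2 ratios of -1.39, -0.85 and -1.07 in nuclei of 500 to 1000, 1000 to 2000 and over 2000 UMIs. The first value rests on 9 UMIs in 103 Tet tcKO nuclei (-2.53 to -0.45). The Cre- rod clusters lay between 177 and 311 CPM and the Tet tcKO cone clusters between 88.6 and 168, with no overlap. The Cre- cone-annotated nuclei, rich in rod markers, had the highest level of any Cre- class, 361 CPM, compared with 138 CPM in the Tet tcKO cone-annotated nuclei, giving a log2 ratio of -1.38 (-1.55 to -1.21). Rdh12 was thus lower against either annotation of Cre- photoreceptors.

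Rdh8 (chr9:20729799-20737413, plus strand, 6 exons) encodes a retinal reductase of the photoreceptor outer segment and was sparse. It had 131 UMIs in Cre- against 52 in Tet tcKO, or 11.4 and 3.13 CPM, which is a log2 ratio of -1.86 (-2.35 to -1.39). In photoreceptors 107 UMIs compared with 16, or 14.1 and 2.16 CPM, for a log2 ratio of -2.71 (-3.57 to -1.94). Rdh8 was the gene of the 8 with the lowest photoreceptor ratio. The cone-annotated nuclei, unlike between the libraries, had 8 UMIs in Cre- against 16 in Tet tcKO, under 10 CPM in both, and their log2 ratio was -1.84. In the Tet tcKO library the bipolar-annotated nuclei had 31 UMIs of Rdh8, or 6.97 CPM, which was 323% (171 to 632) of the photoreceptor level. In the Cre- library the same annotation had 17 UMIs, or 9.63 CPM, which was 68.2% (38.3 to 114) of the photoreceptor level. The order of photoreceptors and bipolar-annotated nuclei was not the same in the 2 libraries, but the Cre- interval included equal levels, and the nuclei so annotated come from different clusters, 3, 4 and 7 in Cre- and mostly the cone marker-rich 22, 35, 39 and 41 in Tet tcKO.

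Dhrs3 (chr4:144619245-144654779, plus strand, 6 exons) encodes a reductase that returns retinal to retinol. It had 595 UMIs in Cre- against 708 in Tet tcKO, or 51.7 and 42.7 CPM, giving a log2 ratio of -0.28 (-0.44 to -0.12). In photoreceptors it was 65.5 CPM in Cre- and 58.8 in Tet tcKO, which is a log2 ratio of -0.15 (-0.34 to 0.03), an interval that included 0. It was 0.00 (-0.31 to 0.31) in nuclei of 1000 to 2000 UMIs and -0.39 (-0.66 to -0.11) in deeper ones. The interval lay below 0 with TMM factors (-0.35, -0.53 to -0.16), with median-of-ratios factors (-0.32, -0.51 to -0.14) and without mitochondrial genes (-0.22, -0.41 to -0.03), so Dhrs3 was lower or level depending on the scaling. Against the Cre- cone-annotated nuclei, whose rod markers exceeded those of rods, the level was 87.3 CPM in Cre- and 58.8 in Tet tcKO, for a log2 ratio of -0.57 (-0.90 to -0.23). With total counts, Dhrs3 had the smallest photoreceptor ratio after Rbp3.

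Rdh10 (chr1:16175555-16203958, plus strand, 6 exons) encodes the retinol dehydrogenase that supplies retinal for retinoic acid. It had 173 UMIs in Cre- against 522 in Tet tcKO, or 15.0 and 31.5 CPM, giving a log2 ratio of 1.07 (0.82 to 1.32). In photoreceptors it was 15.2 CPM in Cre- and 39.5 in Tet tcKO, which is a log2 ratio of 1.38 (1.07 to 1.71), and the log2 ratios by depth were 2.03, 1.39 and 1.23. Rdh10 was higher in Tet tcKO in photoreceptors of every depth. The value of 2.03, for nuclei of 500 to 1000 UMIs, rests on 5 UMIs in 103 Tet tcKO nuclei (0.30 to 3.42). Tet tcKO cone clusters ranged from 20.9 to 53.2 CPM and Cre- rod clusters from 4.92 to 22.1, which overlapped only at cluster 46 of the Tet tcKO library. In the cone-annotated nuclei, mostly cluster 11 in Cre-, the levels were 23.3 and 39.6 CPM, for a log2 ratio of 0.77 (0.16 to 1.43), under the 2-fold limit.

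Rdh10 was also higher in Tet tcKO RGCs, the output neurons of the retina. It had 9 UMIs in Cre- against 49 in Tet tcKO RGCs, or 7.32 and 23.0 CPM, giving a log2 ratio of 1.65 (0.61 to 2.86). Of the retinoid genes measured at 10 CPM in RGCs, 1 of 6 was at least 2-fold higher and 1 of 6 at least 2-fold lower, compared with 3.53% and 3.2% of all genes, 6.72% in all. In cluster 2, an RGC cluster present in both libraries, Rdh10 had 4 and 23 UMIs and a log2 ratio of 1.80 (0.25 to 3.79). Cone markers moved with it, 8 of 9 being higher in Tet tcKO both in RGCs, with a median log2 ratio of 1.27, and in cluster 2, with a median of 2.16, and their part in the Rdh10 difference was not tested. The RGC level of Rdh10 was 48.2% of the photoreceptor level in Cre- and 58.1% in Tet tcKO. The highest Rdh10 levels of any class were in the Muller glia-annotated nuclei, with 13 UMIs in each library, or 58.5 CPM in Cre- and 87.1 in Tet tcKO, and the intervals of these levels overlapped. These nuclei come mostly from cluster 14 in Cre- and from cluster 37 in Tet tcKO. Bipolar-annotated cluster 43 of Tet tcKO was at 51.7 CPM, the highest of the 6 bipolar-annotated clusters there.

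Rlbp1 (chr7:79024602-79038176, minus strand, 9 exons) encodes CRALBP, the carrier of the cis chromophore. It had 1208 UMIs in Cre- against 514 in Tet tcKO, or 105 and 31.0 CPM, which is a log2 ratio of -1.76 (-1.91 to -1.61). The Muller glia-annotated nuclei had the highest level in each library, 284 CPM in Cre- and 127 in Tet tcKO. Rlbp1 was therefore richest in the annotated glia of both libraries, at a lower level in Tet tcKO, but these glia come from different clusters. In Cre- 99 of 144 are cluster 14, which has 0 Tet tcKO nuclei and did not pass the marker check. In Tet tcKO 56 of 102 are cluster 37, which has 2 Cre- nuclei. Bipolar-annotated cluster 43, with 275 Tet tcKO nuclei, shares the leading genes Cp, Tcf7l1 and Gm29260 with cluster 37. It had 49.2 CPM of Rlbp1 in Tet tcKO. In cluster 30, a Muller glia-annotated cluster with 43 Cre- and 46 Tet tcKO nuclei, 21 UMIs compared with 11, or 484 and 163 CPM, for a log2 ratio of -1.57 (-2.77 to -0.45). Rdh10 in the same cluster had 8 and 7 UMIs and a log2 ratio of -0.83 (-2.53 to 0.83). Cluster 30 did not pass the Muller glia marker check, because a gene of the endothelial list and none of its own list was among its 10 leading genes.

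Rlbp1 was lower in the other Tet tcKO populations too. In photoreceptors it was 119 CPM in Cre- and 44.1 in Tet tcKO, giving a log2 ratio of -1.43 (-1.61 to -1.24). In amacrine nuclei, inhibitory interneurons, 34 UMIs compared with 26, or 60.9 and 11.1 CPM, which is a log2 ratio of -2.46 (-3.25 to -1.68). In RGCs 54 UMIs compared with 20, or 43.9 and 9.38 CPM, for a log2 ratio of -2.23 (-3.05 to -1.46). Rlbp1 was at least 2-fold lower in all 3. In the same classes 0 of 9 rod markers were higher, with median log2 ratios of -1.63 in amacrine nuclei and -1.61 in RGCs. Of the Muller glia markers, Glul was at -1.43 and -1.40, but 6 of 11 were higher in amacrine nuclei, with a median of 0.02, and 4 of 11 in RGCs, with a median of -0.50. The part of rod or Muller glia transcripts in the Rlbp1 difference there was not tested. The Rlbp1 level of RGCs was 37.0% of that of photoreceptors in Cre- and 21.3% in Tet tcKO. Among 6 retinoid genes measured at 10 CPM in amacrine nuclei, 0 were at least 2-fold higher and 2, Rlbp1 and Rdh12, at least 2-fold lower, compared with 6.44% of all genes in each direction.

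Rlbp1 varied with mitochondrial content and with depth inside the Cre- library. Over the 14 Cre- rod clusters of at least 50 nuclei, which share 1 library and differ in depth, mitochondrial UMIs were 4.39% to 13.8% and Rlbp1 ran from 81.6 CPM in cluster 19 to 222 in cluster 40. The Pearson correlation was 0.905 and Spearman's 0.824 for Rlbp1, and Spearman's with the summed level of the Muller glia markers was 0.947. That sum is weighted to 2 markers and does not stand for the list. In Cre- photoreceptors Glul had 4561 UMIs and Dbi 1580, and the next marker, Apoe, had 899. Opposite to Rlbp1, Abca4 went from 880 CPM in cluster 16 to 478 in cluster 40, with a Pearson correlation with mitochondrial share of -0.893. Spearman's correlation with the median UMIs of a cluster was -0.851 for Rlbp1 and 0.789 for Abca4. The Pearson values with mitochondrial share were -0.807 for Rdh12, -0.765 for Rdh10 and 0.00188 for Rbp3. Spearman's with mitochondrial share were -0.842 for Abca4, -0.56 for Rdh12, -0.684 for Rdh10 and -0.0769 for Rbp3. Against only the 2 Cre- rod clusters with the least mitochondrial RNA (474 nuclei), the Tet tcKO photoreceptor ratio of Rlbp1 was -1.13 (-1.45 to -0.81), compared with -1.55 against the other 12. With the same 2 clusters the log2 ratios were -0.72 for Abca4, -0.86 for Rdh12, 1.22 for Rdh10 and -2.73 for Rdh8, so each kept its direction. Mitochondrial content was not matched by this choice, since the 2 clusters had 4.63% mitochondrial UMIs and the Tet tcKO library 1.76%. The part of mitochondrial content or depth in these differences between genotypes was not tested.

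**Figure D2:**
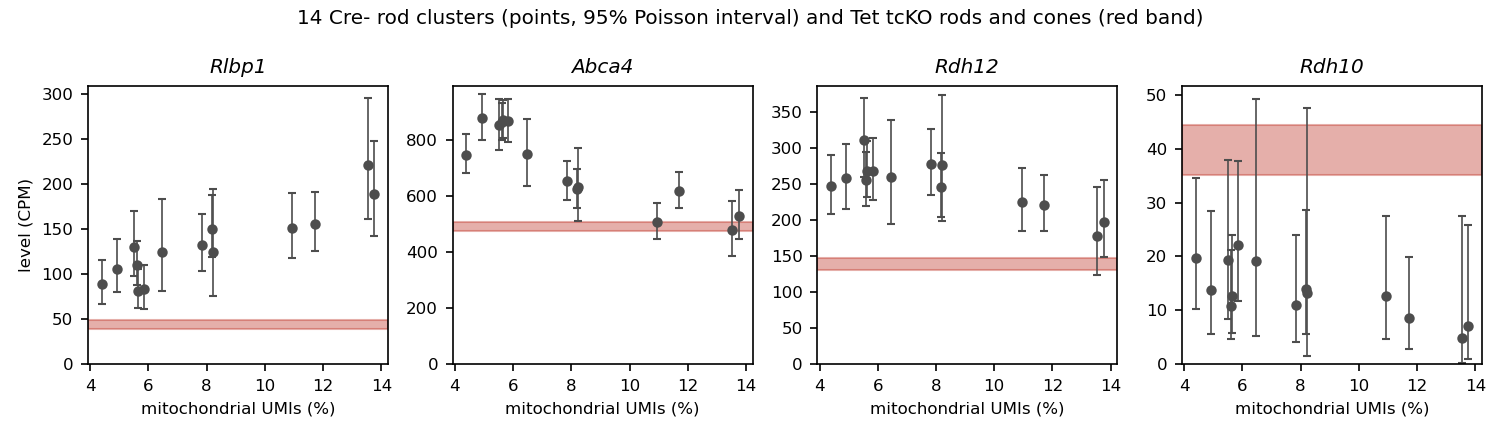
Level in CPM of 4 retinoid genes in the 14 Cre- rod clusters against the percent of UMIs from mitochondrial genes, with exact 95% counting intervals. Rlbp1 was lowest at 81.6 CPM and highest at 222 in cluster 40, with 13.5% mitochondrial UMIs, where Abca4 was at its lowest, 478.

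The Muller glia markers as a list moved less than Rlbp1. In the pooled photoreceptors 8 of 11 were higher in Tet tcKO, with a median log2 ratio of 0.33 and a range from -1.08 to 1.27, and over all nuclei 6 of 11 were higher with a median of 0.13. Glul, the glutamine synthetase of Muller glia, went with Rlbp1, with a log2 ratio of -1.30 over all nuclei. Markers of the retinal pigment epithelium summed to 37.5 CPM in Cre- and 24.5 in Tet tcKO, and 0 of the 9 were at 0. Their part in the Rlbp1 difference was not tested.

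Rbp4 (chr19:38105066-38113754, minus strand, 6 exons), the plasma retinol carrier, had the largest ratio of the 8. It had 6 UMIs in all Cre- nuclei against 254 in Tet tcKO, or 0.521 and 15.3 CPM, giving a log2 ratio of 4.88 (3.73 to 6.34). In photoreceptors 4 UMIs compared with 208, or 0.528 and 28.1 CPM, which is a log2 ratio of 5.73 (4.35 to 7.62). Rbp4 was thus almost without UMIs in Cre- and a low but measured transcript in Tet tcKO photoreceptors. The cone-annotated nuclei, not the same kind of cell in both libraries by their markers, had 2 UMIs in Cre- against 208 in Tet tcKO, or 1.94 and 28.1 CPM, for a log2 ratio of 3.86 (1.99 to 6.91). In that comparison 1 of 7 retinoid genes measured at 10 CPM was at least 2-fold higher and 2, Rdh12 and Rlbp1, at least 2-fold lower, compared with 8.48% and 3.48% of all genes.

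The Rbp4 UMIs were spread over the cone clusters of the Tet tcKO library. All 8 clusters had Rbp4, from 8.54 CPM in cluster 54 to 37.2 in cluster 48 with a median of 24.05, and their intervals all overlapped. Every one lay above the highest of the 14 Cre- rod clusters, 1.98 CPM. The most Rbp4 UMIs in 1 photoreceptor nucleus was 2. Other Tet tcKO classes were lower, with 6.97 CPM in bipolar-annotated nuclei, 3.75 in RGCs and 2.56 in amacrine nuclei, which were 24.8%, 13.4% and 9.13% of the photoreceptor level. The bipolar-annotated clusters ran from 0 CPM in cluster 42 to 17.9 in cluster 22. Cluster 22 is rich in cone markers, and its level lay within the range of the cone clusters. The Muller glia-annotated nuclei had 0 Rbp4 UMIs in both libraries, and 3 UMIs, the floor used for a count of 0, would be 20.1 CPM in Tet tcKO.

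**Figure D3:**
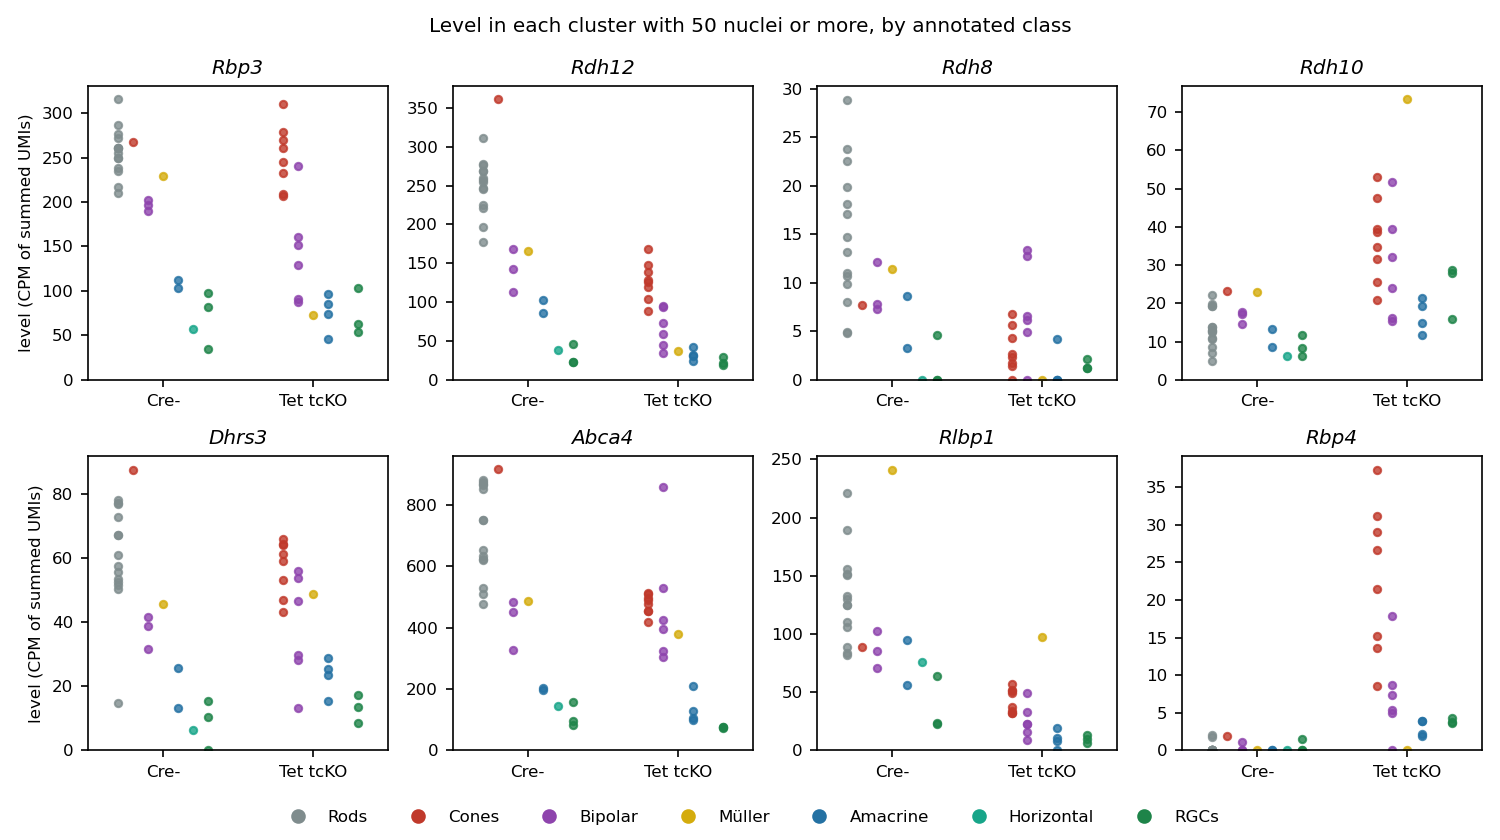
Level in CPM of each retinoid gene in every cluster of at least 50 nuclei, by annotated class and library. The 8 Tet tcKO cone clusters had 8.54 to 37.2 CPM of Rbp4 and 31.8 to 57.4 CPM of Rlbp1, compared with at most 1.98 and at least 81.6 CPM in the 14 Cre- rod clusters.

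The neighbourhood of Rbp4 also held other genes that were higher in Tet tcKO. Rbp4 overlaps the 3' end of Ffar4, a fatty acid receptor on the opposite strand (chr19:38085307-38105287), by 222 bases, and reads from the overlap could not be told apart because no source used here states the strand of the counting. Ffar4 had 4 UMIs in Cre- against 98 in Tet tcKO, giving a log2 ratio of 4.09 (2.69 to 5.99). Pde6c, the cone phosphodiesterase, lies 7474 bases away and had 867 and 2559 UMIs, which is a log2 ratio of 1.03 (0.92 to 1.15). Within 500 kb, a window chosen after the values were seen, 4 of 10 genes with at least 20 UMIs were at least 2-fold higher and 0 lower. Among all genes at 10 CPM or more over all nuclei the shares were 3.18% and 2.48%. That filter is stricter, so the counts and these shares are not like for like, and shares at 20 UMIs were not computed. The same window held 3 of 14 higher around Rbp3, 1 of 5 around Dhrs3, 1 of 10 around Abca4, 1 of 18 around Rlbp1, 1 of 34 around Rdh8 and 0 around Rdh12 and Rdh10. Of the same genes, 1 was at least 2-fold lower around each of Rbp3, Abca4, Rlbp1 and Rdh8, and 0 around Dhrs3, Rdh12 and Rdh10. Around Rbp4, the higher genes beside Ffar4 and Pde6c were Slc35g1, with 44 and 357 UMIs and a log2 ratio of 2.49, and Cyp26a1. Cyp26a1, an enzyme that breaks down retinoic acid, had 12 and 115 UMIs, under 10 CPM in both libraries, and a log2 ratio of 2.73 (1.87 to 3.73). The other genes ranged from -0.50 for Myof to 0.73 for Lgi1, so the higher levels did not extend to every neighbour.

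**Figure D4:**
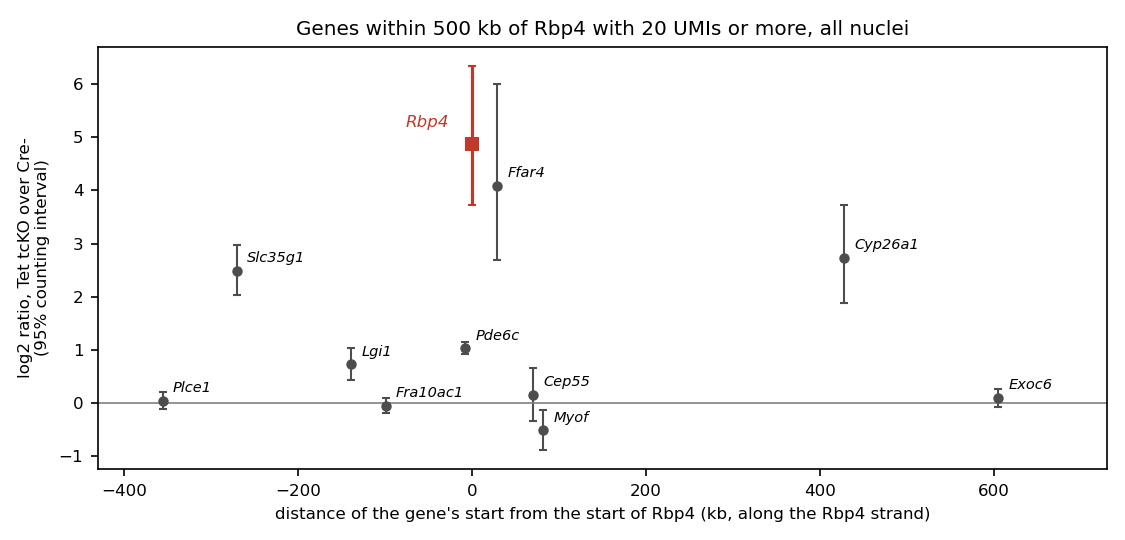
Log2 ratio of Tet tcKO over Cre- over all nuclei for Rbp4 and the genes with at least 20 UMIs within 500 kb, against the distance between gene starts in kb, with exact 95% counting intervals. Rbp4 at 4.88, Ffar4 at 4.09, Cyp26a1 at 2.73, Slc35g1 at 2.49 and Pde6c at 1.03 were past the 2-fold limit.

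The 3 higher genes around Rbp3 were Gdf10, with 0 and 46 UMIs, Gprin2, with 44 and 143 UMIs, and Zfp488, a zinc finger gene 2850 bases from Rbp3, with 27 UMIs in Cre- and 252 in Tet tcKO, for a log2 ratio of 2.70 (2.12 to 3.33). Rpl7, 668 bases from Rdh10, had a log2 ratio of -0.32 and Stau2 of 0.01. The nearest neighbours of Rlbp1 were at 0.01 for Abhd2 and 0.43 for Fanci, those of Abca4 at -0.34 for Arhgap29 and 0.01 for Gclm, and those of Rdh12 at 0.59 for Rdh11 and 0.11 for Zfyve26.

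**Figure D5:**
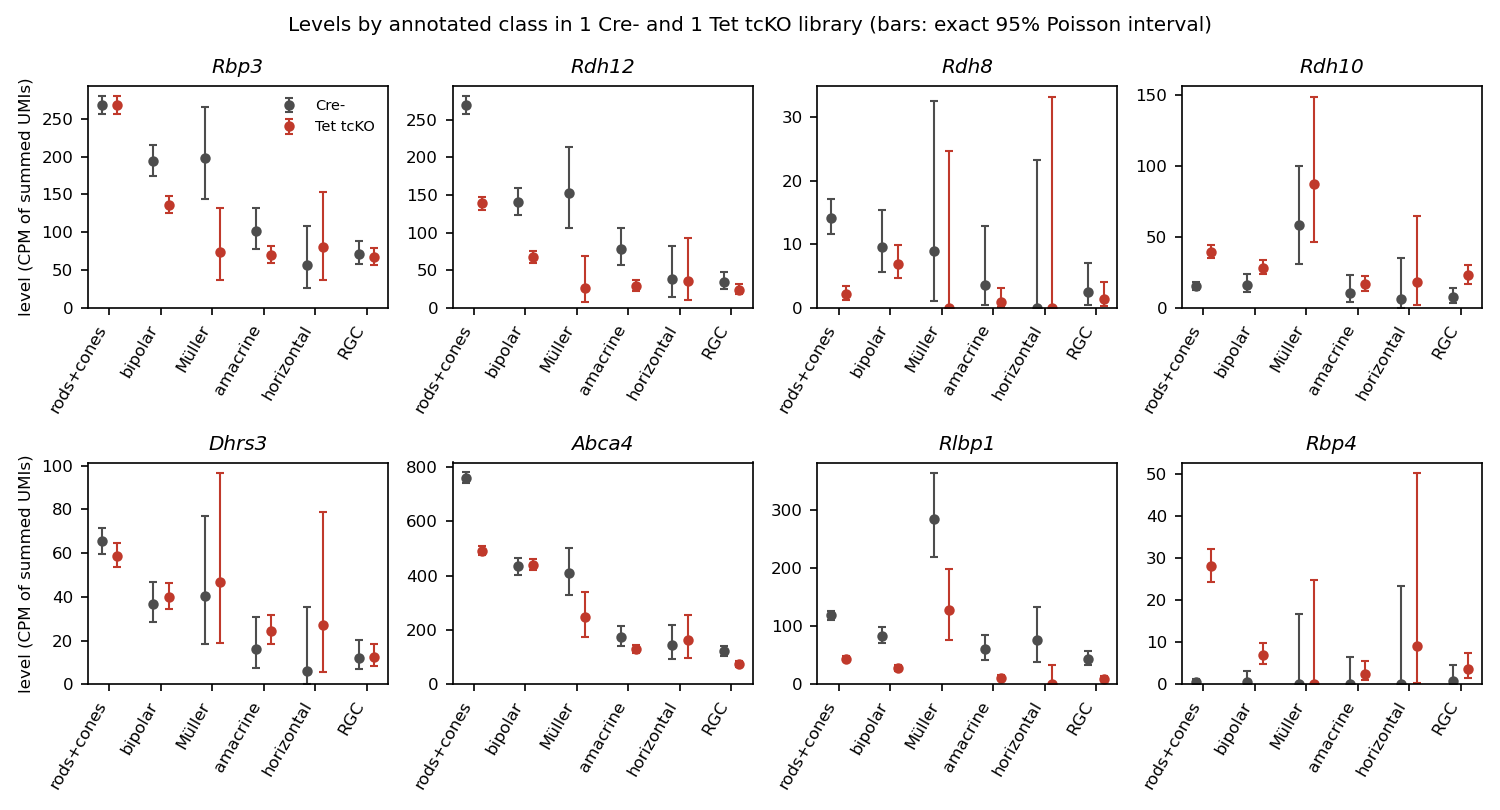
Level in CPM of each retinoid gene by annotated class in both libraries, rods and cones pooled, with exact 95% counting intervals. Rlbp1 was highest in Muller glia-annotated nuclei (284 and 127 CPM), and Rbp4 stood out in the pooled photoreceptors of Tet tcKO (28.1 CPM).

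Levels by class differed between the genes in how far they stood above neurons that are not photoreceptors. In RGCs, Rbp3 was at 26.7% of the photoreceptor level in Cre- and 25.1% in Tet tcKO, Rdh12 at 12.99% and 17.2%, and Abca4 at 16.0% and 15.0%. These are photoreceptor genes, and their RGC values are given as the background in each library. The share of photoreceptor nuclei with an Rbp4 UMI was 0.0730% in Cre- and 6.16% in Tet tcKO, at median depths of 1046 and 1714 UMIs, and 0.176% and 1.14% in RGCs, at 1601 and 2381. After thinning every nucleus to 500 UMIs, with none left out, the Rbp4 share was 0% and 0.9904% in photoreceptors and 0% and 0.284% in RGCs. For Rdh12 the unthinned photoreceptor shares were 29.3% and 26.3%, whereas the thinned shares were 12.8% and 6.44%, against 2.29% and 0.426% in RGCs. For Rbp3 the thinned shares were 13.2% and 12.6%. At equal depth the shares of Rbp4 and Rdh12 had the order of their CPM, while those of Rbp3 did not, and no order is read from them.

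Each difference over all nuclei was divided into a part that follows class shares and a part that follows levels within classes. At the class shares of the Cre- library, the log2 ratio of Rbp3 was -0.08 and that of Dhrs3 -0.09, and class shares made up 64.0% and 79.5% of their differences. For Rdh12, Rdh8, Abca4 and Rlbp1 the class shares made up 22.0%, 6.92%, 30.7% and 12.6%, and the log2 ratios at fixed shares were -0.97, -2.08, -0.54 and -1.49. For Rdh10 and Rbp4 the shares went against the difference, and at fixed shares the log2 ratios were 1.24 and 5.28. Most of the difference in these 6 genes therefore lay within the classes as annotated, where photoreceptors were counted as 1 class. A rod-to-cone difference is thus counted as a level. The bipolar-annotated class gave 15.3% of UMIs in Cre- and 26.8% in Tet tcKO, where it held the cone marker-rich clusters. All of these percentages depend on the annotation.

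The genes most like each retinoid gene were taken by Pearson correlation of log2 levels over 47 cluster-by-library sums, which share 2 libraries and their depth. Rdh12 was most like Pde6b at 0.973, Abca4 like Sag at 0.98 and Rbp3 like Tma7 at 0.936, and Pde6b and Sag encode phototransduction proteins. Rlbp1 was most like Glul, at 0.963, and Dhrs3 like Samd7, at 0.909. Rdh10 was most like Ppp3ca at 0.8, and for Rbp4 and Rdh8, which never reached 50 CPM in a sum, the values were 0.914 with Fabp7 and 0.824 with Slc25a25. Among the retinoid genes, Rbp3, Rdh12 and Abca4 formed pairs at 0.887 to 0.9, Rdh10 and Rbp4 were at 0.57 and Rlbp1 and Rbp4 at -0.321.

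A list of 38 other genes of retinoid metabolism and signalling gave the wider pathway, and 14 of them reached 10 CPM. None of these 14 was at least 2-fold higher in Tet tcKO over all nuclei and 2 were at least 2-fold lower, compared with 3.18% and 2.48% of all genes. The lower ones were Rgr, an opsin that isomerizes retinoids, with 131 and 65 UMIs and a log2 ratio of -1.54 (-1.99 to -1.10), and Ttr, the plasma partner of RBP4, with 201 and 133 UMIs and a log2 ratio of -1.12 (-1.45 to -0.80). The median log2 ratio of the 14 was 0.28, with a range from -1.54 to 0.59. The retinol dehydrogenases Rdh11, Rdh13 and Rdh14 had log2 ratios of 0.59, 0.51 and 0.40, opposite in direction to Rdh12 and Rdh8. The retinoic acid receptors were at -0.57 for Rara, 0.29 for Rarb and 0.59 for Rarg, and Aldh1a1, which makes retinoic acid, was at 0.27. Rpe65, the isomerase of the pigment epithelium, had 51 and 60 UMIs, under 10 CPM in both libraries. Cyp26a1 is also on the list but was under 10 CPM over all nuclei, where its log2 ratio was 2.73. In photoreceptors Cyp26a1 had 1.06 and 10.9 CPM and a log2 ratio of 3.37 (2.325 to 4.632). Crabp1 had 5.94 and 12.8 CPM there, with a log2 ratio of 1.11 (0.584 to 1.655), while Rgr was lower there, at -1.25.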

How the data were processed

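Nuclei were captured with the PIPseq T20 3' kit 4.0, and per the labels and the study's methods the authors aligned reads to GRCm39 with pipseeker 3.3.0, removed ambient RNA with CellBender, and filtered, clustered and annotated the nuclei with Monocle3, which left nuclei of 502 to 9981 UMIs. The deposited matrices hold UMI counts per gene for the filtered nuclei, and whether these precede or follow the removal of ambient RNA was not tested. The deposited nucleus tables give gene and UMI counts, a percent of mitochondrial transcripts and a size factor (a ratio, the total over a constant). The deposited gene table gives the number of nuclei with a gene and, as a signal, the authors' mean UMIs per 10000 for each genotype. The size factors and means were not used for comparisons.

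Counts were summed per genotype and annotated class, cluster or pool of classes and divided by the total (CPM). Ratios carry exact conditional intervals, levels exact Poisson intervals and shares exact Clopper-Pearson intervals, all at 95%. A difference was called at 2-fold or more in genes with at least 10 CPM in 1 library, and a count of 0 was set to 3 UMIs in a ratio, over the population. A cluster passed the marker check where, among its 10 leading genes, markers of no other class outnumbered those of its class, so a cluster with 0 markers of any class also passed. No doublet caller was run. An alternative left out the 5% of nuclei with the most UMIs. The steps were tested on simulated data. The 8 genes, the gene lists and the rules were chosen with earlier results of these data known, and the members named are all 8 genes. Other genes were named as pathway members, nearest neighbours or the genes most alike, and Cyp26a1, Crabp1, Glul, Ffar4, Pde6c, Slc35g1, Gdf10, Gprin2 and Zfp488 after their values were seen. Of 32227 gene IDs, 31681 were found in the annotation used for positions, GENCODE on GRCm39, and the annotation behind the authors' counts is not named in those sources. Python 3.11.15 with numpy 2.4.6, pandas 2.3.3, scipy 1.17.1 and matplotlib 3.10.9 was used, and edgeR 4.0.16 in R 4.3.3 for TMM factors.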

Additional observations from a re-analysis of the deposited data

Results flagged for a closer look

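The column of the deposited gene table that counts nuclei with a gene, which no comparison uses, gave more nuclei than the 2 matrices for each of the 8 retinoid genes. The ratio was largest for Rdh8, at 1.31, with 234 nuclei in the table and 178 in the matrices, and smallest for Rlbp1, at 1.14. Which nuclei the column covers was not tested.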

How the results depend on the processing

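No paired analysis was possible because each genotype has 1 library. Over 9 alternatives for all nuclei and 10 for pooled photoreceptors, 119 of 152 log2 ratios of the 8 genes stayed inside the interval of the reported value and 33 did not. None of the called ratios changed direction, and the number of genes called went from 5 to 4 at the least over all nuclei and from 4 to 5 at the most in photoreceptors. Over all nuclei Rdh10 passed the 2-fold limit in 7 of 9 settings and Rdh12 in 8 of 9, and Rdh12 did so in 4 of 10 settings in photoreceptors. The median log2 ratio over all nuclei, -0.52, became -0.62 with TMM factors, -0.63 with median-of-ratios factors and -0.31 at Cre- class shares. The photoreceptor median, -0.39, became -0.58, -0.56 and, in an alternative chosen after seeing the data, -0.57 in nuclei of 2000 UMIs or more. The number of genes past 2-fold depended on the minimum level, at 632 over all nuclei with 10 CPM, 1868 with 1 CPM and 262 with 50 CPM, and at 1052, 2845 and 379 in photoreceptors. The photoreceptor ratio of Rbp4 ran from 3.38, where 0 Cre- UMIs were set to the floor, to 6.59. Leaving out cluster 45, 22 Cre- and 2 Tet tcKO nuclei with 3097 CPM of Rbp3 in Cre-, was added after seeing the data and left 5 genes called and a median of -0.51. Depth limits Rdh8 and Rbp4 most, with 16 and 4 UMIs in the photoreceptors of the lower library.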
